A study of Homo sapiens with 12 samples.

Results

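RNA of 293T cells carrying shRNA3 was compared directly with RNA of 293T cells carrying shRNA1, both of them short hairpins against RBFOX2. The comparison took 6 of the 12 arrays of the study, 3 with each hairpin. The members are these arrays, chosen by their titles, and the question is how cells with a different hairpin against one target differ from each other. The other arrays held a non-target control hairpin (3) and a further RBFOX2 hairpin, shRNA2 (3). They do not enter the difference, but they share the fit that estimates the spread, and control values are printed beside some genes to show where each hairpin lies. 293T is an established cell line derived from human embryonic kidney and expresses SV40 large T antigen. In all 4 groups the hairpin was delivered by lentivirus and puromycin was applied at 1 ug/mL from 48 hours after infection for 10 days, so every group, the control included, carries a hairpin and has passed drug selection. The cells were infected populations. The labels number the replicates 1 to 3 but do not say that they were separate cultures, so a p-value here reflects the spread between 3 arrays of a group, and that spread may be technical.

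RBFOX2 is an RNA-binding protein that recognises GCAUG in pre-mRNA and promotes or represses the inclusion of nearby exons, depending on the side on which it binds. A short hairpin is processed into a small RNA that directs the silencing of matching transcripts, and the hairpins compared here share the target RBFOX2. The array carries separate probe sets for exons and for exon-exon junctions. Here a gene value is the mean log2 signal of a gene's probe sets, and a splicing index is the log2 signal of 1 probe set minus, on that array, the mean over the gene's other probe sets. All differences are shRNA3 minus shRNA1 on the log2 scale, so a positive value is a higher level with shRNA3, and each SE is the fit's standard error, from 3 arrays per group.

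The 6 arrays were close to each other, with correlations across probe sets between 0.992 and 0.995 and array medians of all 12 arrays between 7.24 and 7.27. The median standard deviation of a gene over the 3 arrays was 0.037 with shRNA1, 0.044 with shRNA3, 0.042 in the control and 0.062 with shRNA2. All 8 genes listed as typical of this kidney line had at least 3 probe sets above the level filter of 6.53. Their means over the list were 8.93 to 8.99 per array with shRNA1 and 9.01 to 9.09 with shRNA3. NEFM and NEFL, with differences of 0.39 and 0.31 over all their probe sets, had the largest rises of the 8. Of 14 markers of other cell types 13 were measured, with means of 5.27 to 5.31 and 5.33 to 5.40. Of these, 11 also had at least 3 such probe sets, so that criterion does not separate the lists. The highest of the 13 was COL1A1, at 7.85 with shRNA1 and 7.95 with shRNA3, above PAX2 of the kidney list, at 7.46 and 7.51.

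RBFOX2 itself was less depleted by shRNA3. Its gene value was 8.59, 8.54 and 8.51 on the shRNA1 arrays and 8.82, 8.84 and 8.85 on the shRNA3 arrays, against 9.59, 9.58 and 9.58 on the control arrays. The hairpin groups did not overlap, and the shRNA3 arrays lay between the shRNA1 and the control arrays. The difference was 0.29 (SE 0.03; limma, adjusted p = 0.000182). On the linear scale 48.7% of the control signal remained with shRNA1 and 59.7% with shRNA3. Of its 44 probe sets 40 were higher with shRNA3, and 11 of these passed the test as single probe sets while 0 were called lower. The paralogs RBFOX1 and RBFOX3 did not pass, with differences of 0.12 (SE 0.04; limma, adjusted p = 0.0998) and -0.08 (SE 0.04; limma, adjusted p = 0.202). RBFOX1 was called higher in 3 other settings, with a filter at the 60th percentile (0.14; limma, adjusted p = 0.0325), with the 6 arrays alone (limma, adjusted p = 0.0485) and without shRNA2 replicate 3 (limma, adjusted p = 0.0490). RBFOX3 was called lower only when a trend with signal level, described below, was removed (-0.15; limma, adjusted p = 0.0226).

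Gene levels differed in many genes and by small amounts. Of 16648 genes tested with limma, 1182 (7.1%) had an adjusted p below 0.05, 491 of them (2.95%) higher and 691 (4.15%) lower with shRNA3. The median difference was 0.17 among the genes called higher and -0.18 among those called lower. Only 155 called genes reached 1.2-fold, 44 higher and 111 lower, and 3 reached 1.5-fold: CLGN, NEK7 and CERS5, all lower. None reached 2-fold. The shRNA1 and shRNA3 arrays did not overlap in 7279 genes (43.7%), including 1181 of the 1182 called genes, so separation of the arrays alone marks far more genes than the test calls.

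These counts rest on the estimate of spread and on single arrays. With the 6 arrays alone 3347 genes were called, 1892 higher and 1455 lower. Leaving out 1 array of the compared groups gave 377, 361 and 367 genes for shRNA1 (replicate 1, 2 or 3 removed) and 291, 1644 and 338 for shRNA3 (in the same order). Without shRNA2 replicate 3 the count was 2508. Centring each array on its median gave 390 higher and 857 lower, and so a larger share of lower genes.

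The direction also went with the level of a gene. The genes were put into 5 equal bins by level. In the dimmest bin the median difference was 0.08, with 153 genes called higher and 21 lower. In the brightest bin it was -0.05, with 32 called higher and 252 lower. Across the bins from dim to bright the medians were 0.08, 0.07, 0.02, -0.03 and -0.05. Against the control, the medians of the dimmest and the brightest bin were 0.06 and -0.06 for shRNA3 and -0.02 and -0.01 for shRNA1. When a smooth trend with level was subtracted from each array, 934 genes were called, 366 higher and 568 lower, of which 692 were also called in the main analysis. What part the trend has in any single gene was not tested, and counts with the trend removed stand beside the gene groups below.

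**Figure D1:**
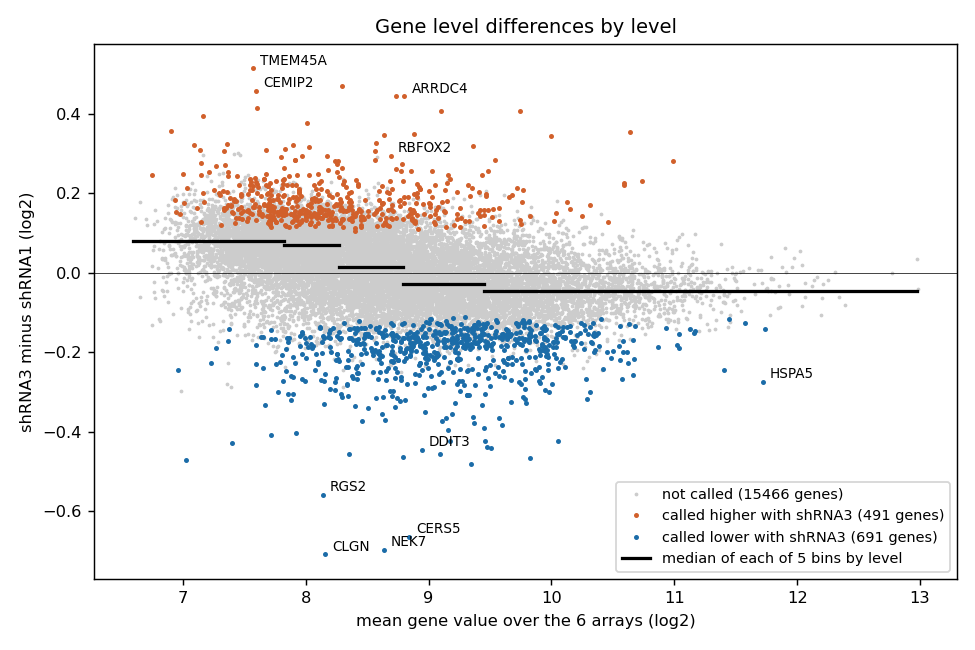
Difference between shRNA3 and shRNA1 (log2) of each of 16648 genes against its mean value over the 6 arrays (log2), with the 491 genes called higher and the 691 called lower in colour. Black lines are the median differences of 5 bins by level, which run from 0.08 in the dimmest to -0.05 in the brightest.

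The largest falls with shRNA3 were in single genes of varied function. CLGN encodes calmegin, a chaperone of the endoplasmic reticulum (ER). Its gene value was 8.45, 8.60 and 8.48 with shRNA1 and 7.83, 7.87 and 7.70 with shRNA3, a difference of -0.71 (SE 0.05; limma, adjusted p = 1.28e-05). The groups were far apart, with the control arrays (8.28, 8.18 and 8.19) between them, and 23 of its 31 probe sets were called lower. NEK7 encodes a kinase of mitosis that also takes part in inflammasome assembly. It stood at 8.98, 9.02 and 8.95 with shRNA1 and at 8.35, 8.39 and 8.12 with shRNA3 (difference -0.70, SE 0.06; limma, adjusted p = 2.78e-05). Its control arrays, at 9.08, 9.04 and 8.99, overlapped the shRNA1 arrays, so the shRNA3 arrays were the ones set apart, and 20 of its 27 probe sets were called lower. CERS5 encodes a ceramide synthase. It read 9.24, 9.09 and 9.18 with shRNA1 and 8.42, 8.59 and 8.51 with shRNA3, with a control mean of 9.10 (difference -0.66, SE 0.05; limma, adjusted p = 2.78e-05). Here again the shRNA3 arrays were low and the other 2 groups overlapped.

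Among the other genes of the 15 largest falls, NECAP1, GMNN and FAM32A had the same arrangement, low with shRNA3 and close to the control with shRNA1. NECAP1, which acts in clathrin-coated vesicle formation, had values of 9.52, 9.57 and 9.67 with shRNA1 and 9.09, 9.15 and 9.07 with shRNA3 (difference -0.48), against 9.64, 9.59 and 9.62 in the control. GMNN, geminin, the inhibitor of replication licensing, had 10.02, 10.04 and 10.12 with shRNA1 and 9.60, 9.61 and 9.56 with shRNA3 (difference -0.47), against 10.12, 10.02 and 10.00. In both genes the shRNA3 arrays were below every other array of the 3 groups. FAM32A differed by -0.44, with shRNA1 at 0.00 from the control and shRNA3 at -0.44. Further genes of the 15 are given without control values, so only the order of the hairpin groups is described. FNDC3A, a membrane protein with fibronectin type III domains, differed by -0.46, and 30 of its 63 probe sets were called lower. RGS2, a regulator of G protein signalling, read 8.38, 8.43 and 8.44 with shRNA1 and 7.76, 8.04 and 7.78 with shRNA3 (difference -0.56, SE 0.07; limma, adjusted p = 0.000871). One shRNA3 array of RGS2 was higher than its pair of partners, but all 3 were below every shRNA1 array. HIPK3, a homeodomain-interacting kinase, differed by -0.46. TBL1X, a subunit of the NCoR and SMRT corepressor complexes, differed by -0.42 and had 32 of 55 probe sets called lower. DUS2, a tRNA dihydrouridine synthase, differed by -0.44.

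**Figure D2:**
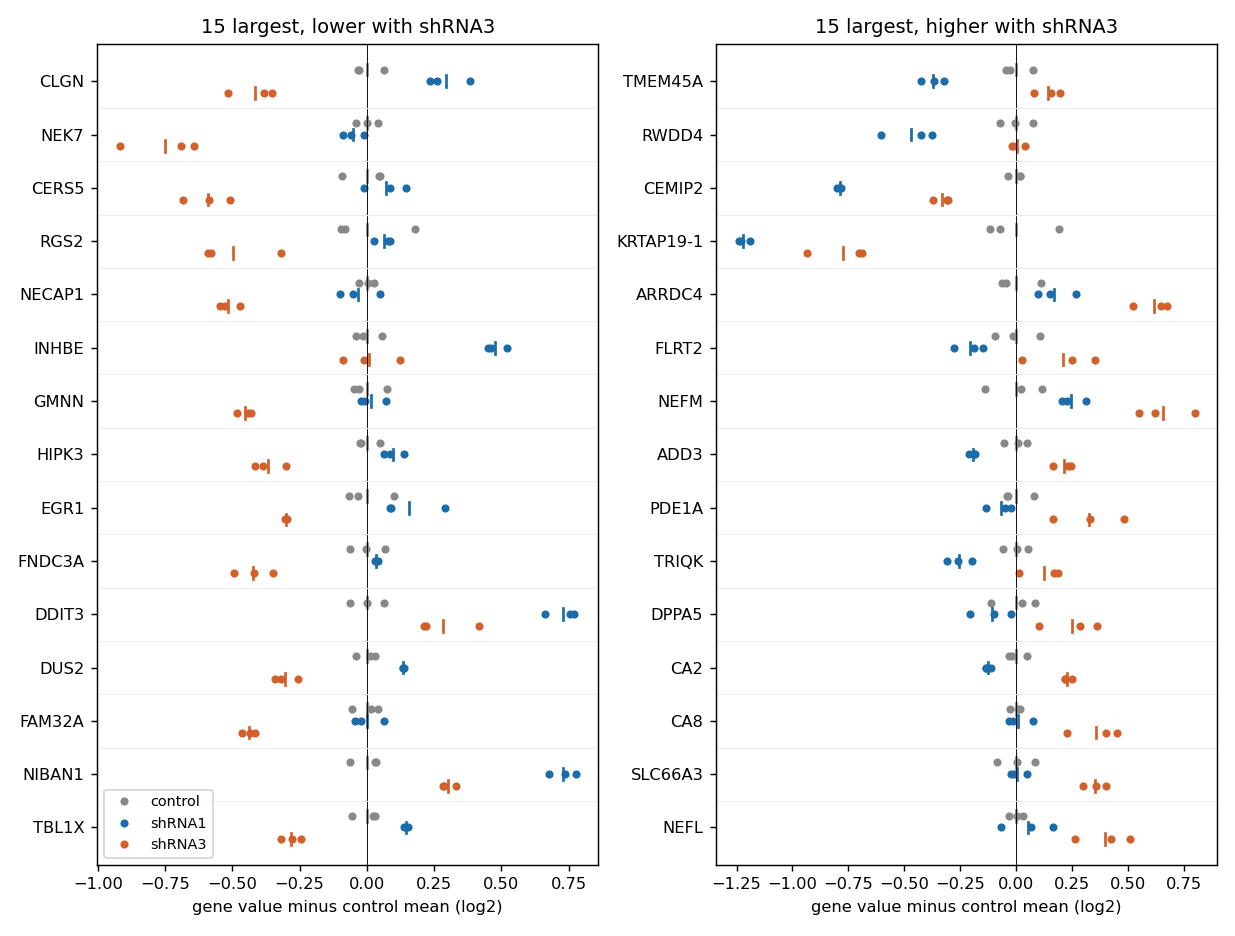
Gene values minus the control mean (log2) of the 15 genes with the largest falls (left) and the 15 with the largest rises (right) with shRNA3, 1 point per array and a bar at each group mean. NEK7, CERS5, NECAP1, GMNN and FAM32A have shRNA1 near the control and shRNA3 low, while CEMIP2 and KRTAP19-1 are low with both hairpins and lower with shRNA1.

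Part of the genes of protein folding in the ER were called lower with shRNA3. Of 36 measured genes for ER chaperones, glycoprotein folding and ER-associated decay, 10 (27.8%) were called lower and 0 higher, beside 4.15% and 2.95% of all genes, and 26 were not called. The median difference of the list was -0.09, against 0.02 over all genes, and 31 of the 36 were below 0. With the level trend removed 9 were called lower and 1, CALR (named after its value was seen), higher, and the median was -0.06. Leaving out single arrays gave between 6 and 11 called lower. HSPA5 encodes BiP, the major ER chaperone. Its values were 11.80, 11.90 and 11.86 with shRNA1 and 11.62, 11.57 and 11.56 with shRNA3 (difference -0.27, SE 0.04; limma, adjusted p = 0.000769). The control arrays read 11.59, 11.59 and 11.60, so shRNA1 was the group set apart and the shRNA3 arrays lay around the control. HERPUD1, a membrane protein of ER-associated decay, had the same order, with 10.06, 10.13 and 10.11 with shRNA1, 9.91, 9.85 and 9.79 with shRNA3 and 9.73, 9.81 and 9.77 in the control (difference -0.24, SE 0.04; limma, adjusted p = 0.00539).

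Other members of the list took another order. DERL2, a part of the channel for ER-associated decay, read 9.08, 9.14 and 9.21 with shRNA1 and 8.83, 8.77 and 8.79 with shRNA3 (difference -0.35), against a control mean of 9.08. DNAJC3, a co-chaperone that inhibits the kinase PERK, differed by -0.30. In DERL2 and DNAJC3 the shRNA3 arrays lay below the control and the shRNA1 arrays overlapped it. The remaining called members, named here after their values were seen, were DNAJB9 (-0.27), SEL1L (-0.25), MANF (-0.20), XBP1 (-0.18) and ERO1B (-0.16). XBP1, the transcription factor that induces many of these genes, was called with the trend in place but not with it removed.

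When translation initiation is restrained, ATF4 switches on the genes of the integrated stress response, and these were in part lower with shRNA3. Of 24 measured, 6 (25%) were called lower and 0 higher, beside 4.15% and 2.95% of all genes. The list median was -0.06, against 0.02 over all genes. With the level trend removed 5 were called lower, all but SESN2, and leaving out single arrays gave 3 to 9. DDIT3, which encodes the transcription factor CHOP, read 9.10, 9.20 and 9.21 with shRNA1 and 8.86, 8.66 and 8.65 with shRNA3 (difference -0.45, SE 0.07; limma, adjusted p = 0.00439). Its control arrays were at 8.38, 8.50 and 8.44, so both hairpin groups were above the control and shRNA1 was the higher. SLC7A11, the cystine transporter, stood at 9.99, 10.01 and 9.84 with shRNA1 and at 9.60, 9.65 and 9.64 with shRNA3 (difference -0.32, SE 0.06; limma, adjusted p = 0.00798). The shRNA3 arrays of SLC7A11 began at the top of the control range, which ran from 9.54 to 9.60, and the shRNA1 arrays lay above it. CHAC1, a glutathione-degrading enzyme, differed by -0.25, and 4 of the 12 fits that leave out an array did not call it.

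Outside the lists, NIBAN1, a gene induced by stress, and INHBE, the inhibin beta E subunit, belonged to the 15 largest falls. NIBAN1 read 7.67, 7.57 and 7.62 with shRNA1, 7.17, 7.22 and 7.17 with shRNA3 and 6.83, 6.92 and 6.92 in the control (difference -0.43, SE 0.07; limma, adjusted p = 0.00243). INHBE, on 5 probe sets, read 7.25, 7.30 and 7.24 with shRNA1, 6.91, 6.77 and 6.70 with shRNA3 and 6.74, 6.84 and 6.77 in the control (difference -0.47, SE 0.07; limma, adjusted p = 0.0016). The shRNA1 arrays were highest in both genes, and the shRNA3 arrays of INHBE overlapped the control. Of the 5 INHBE probe sets 2 were called lower, with differences from -1.57 to 0.13 and a median of -0.41. The largest fall was in the junction given below with the splicing indices, so the gene value and that call are not separate results.

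**Figure D3:**
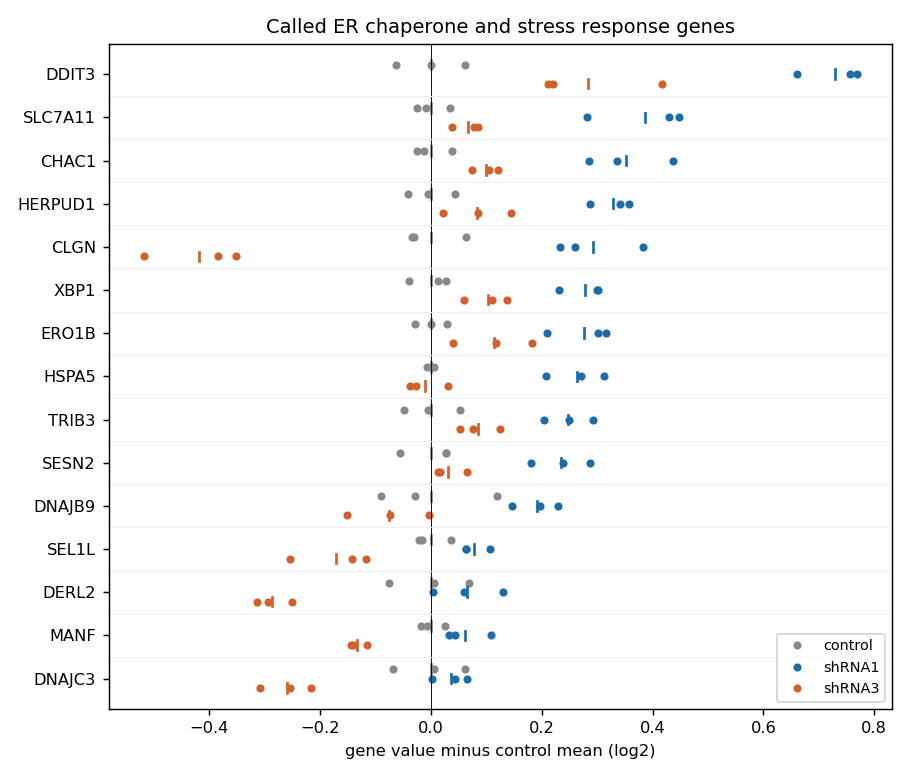
Gene values minus the control mean (log2) of the called members of the ER chaperone list and the integrated stress response list, 1 point per array and a bar at each group mean, ordered by the shRNA1 mean. From DDIT3 to SESN2, CLGN aside, shRNA1 lies above the control and shRNA3 nearer to it, whereas in SEL1L, DERL2, MANF and DNAJC3 shRNA3 lies below the control.

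Promoters of these genes are known to carry elements for the factors of both responses. The window searched ran from 250 bases before to 50 bases after the start of the gene (RefSeq, GRCh38.p14). Of the called genes with a match, 4 are shown, and ERO1B, which also holds a match, is not. The ER stress response element ERSE (CCAAT, any 9 bases, then CCACG), ERSE-II (ATTGG, any 1 base, then CCACG) and a CARE-type element read by ATF4 with C/EBP factors (TGATGNAAN) were searched on both strands. The first and second share their letters in part and can overlap. In capitals are the matches to ERSE in HSPA5 (chr9:125241294-125241593, minus strand) and XBP1 (chr22:28800520-28800819, minus strand), to ERSE-II and CARE in HERPUD1 (chr16:56931892-56932191, plus strand) and to CARE in CHAC1 (chr15:40953221-40953520, plus strand). The CARE matches read on the opposite strand, as GTTGCATCA.
HSPA5: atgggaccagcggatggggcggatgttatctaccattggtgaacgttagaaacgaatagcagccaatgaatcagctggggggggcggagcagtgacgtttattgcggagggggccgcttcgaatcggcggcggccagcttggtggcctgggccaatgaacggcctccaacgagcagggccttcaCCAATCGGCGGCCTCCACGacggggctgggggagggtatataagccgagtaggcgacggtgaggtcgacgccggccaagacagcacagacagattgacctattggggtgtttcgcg
XBP1: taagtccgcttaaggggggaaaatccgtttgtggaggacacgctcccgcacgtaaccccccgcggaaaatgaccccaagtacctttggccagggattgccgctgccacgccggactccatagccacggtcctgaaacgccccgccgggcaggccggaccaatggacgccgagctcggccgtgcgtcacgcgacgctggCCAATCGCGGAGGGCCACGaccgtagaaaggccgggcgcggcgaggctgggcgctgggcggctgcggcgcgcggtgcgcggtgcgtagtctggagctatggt
HERPUD1: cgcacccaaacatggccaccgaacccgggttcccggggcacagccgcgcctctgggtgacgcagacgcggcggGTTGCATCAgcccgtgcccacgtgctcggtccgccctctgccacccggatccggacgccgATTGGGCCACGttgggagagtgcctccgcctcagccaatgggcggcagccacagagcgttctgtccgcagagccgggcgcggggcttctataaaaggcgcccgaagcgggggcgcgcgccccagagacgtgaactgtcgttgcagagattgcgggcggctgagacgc
CHAC1: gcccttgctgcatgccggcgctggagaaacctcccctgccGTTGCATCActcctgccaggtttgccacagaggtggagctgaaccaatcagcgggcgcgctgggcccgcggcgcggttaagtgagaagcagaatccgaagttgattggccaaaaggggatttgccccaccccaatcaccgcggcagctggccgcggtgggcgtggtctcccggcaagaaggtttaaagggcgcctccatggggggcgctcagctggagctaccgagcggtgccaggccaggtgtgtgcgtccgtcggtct

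Such matches were rare over the tested promoters and were not general among the genes called lower. Of 13119 tested genes with a promoter in the table, 16 (0.122%) held ERSE, 12 (0.0915%) ERSE-II and 258 (1.97%) CARE. Of all 578 genes called lower with a promoter, 3 (0.519%) held ERSE. The matches went with the lists, called or not: of 32 genes of the whole ER list with a promoter, 6 held ERSE and 3 ERSE-II, and of 21 of the whole stress response list 6 held CARE. Among the 10 ER genes called lower, 3 held ERSE (HSPA5, XBP1 and ERO1B) and 1 held ERSE-II (HERPUD1), and of 5 called stress response genes with a promoter 2 held CARE (CHAC1 and HERPUD1). CLGN, DDIT3, DERL2 and DNAJC3 held no match in this window. Some members of these lists are known as targets through such elements, so a match is a description.

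Amino acid transporters moved in both directions. Of 26 measured, 6 (23.1%) were called lower and 2 (7.69%) higher, beside 4.15% and 2.95% of all genes. Leaving out single arrays gave 3 to 9 lower and 1 to 3 higher, and with the level trend removed 5 were lower and 1 higher. SLC7A3, a cationic amino acid transporter, read 8.99, 9.07 and 9.02 with shRNA1, 8.77, 8.79 and 8.69 with shRNA3 and 8.46, 8.53 and 8.49 in the control (difference -0.28, SE 0.06; limma, adjusted p = 0.013). SLC7A8, a neutral amino acid transporter of the LAT family, read 8.63, 8.61 and 8.70 with shRNA1 and 8.90, 8.90 and 8.92 with shRNA3 (difference 0.26, SE 0.04; limma, adjusted p = 0.000981). SLC7A3 thus followed the order of DDIT3, while SLC7A8 was highest with shRNA3. The glutamate transporter SLC1A1 differed by 0.25 but lost its call with the level trend removed. Of 30 tRNA synthetases 5 (16.7%) were called lower, beside 4.15% of all genes, and 0 to 6 with single arrays left out. The 5 were RARS1, RARS2, TARS1, IARS1 and WARS1 (the last named after its value was seen), between -0.13 and -0.19. With the trend removed only TARS1 was called lower, and PARS2 and VARS1, named after their values were seen, were called higher, while the list median went from -0.07 to -0.03 and kept its sign.

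In sphingolipid synthesis 5 of 22 genes (22.7%) were called lower and 0 higher, beside 4.15% and 2.95% of all genes. Leaving out single arrays gave 3 to 8 lower. Beside CERS5 the called genes were ORMDL2 (-0.24), a regulator of serine palmitoyltransferase, and its small subunit SPTSSA (-0.22). The others were the glucosylceramide synthase UGCG (-0.24) and the sphingosine phosphate lyase SGPL1 (-0.18, named after its value was seen). CERS5 was the one gene of the list with a difference beyond 1.2-fold. With the trend removed 4 stayed called, all but SPTSSA.

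Of 44 integrins and cadherins 3 (6.82%) were called lower and 1 (2.27%) higher, not far from the 4.15% and 2.95% of all genes. The 3 were integrin subunits. ITGA2, the collagen-binding alpha subunit, read 8.11, 8.18 and 8.10 with shRNA1, 7.68, 7.80 and 7.69 with shRNA3 and 8.10, 8.13 and 8.11 in the control (difference -0.40, SE 0.04; limma, adjusted p = 6.79e-05). ITGAV, the alpha subunit of vitronectin receptors, read 8.86, 8.85 and 8.78, then 8.42, 8.52 and 8.44, against 8.84, 8.81 and 8.82 (difference -0.37, SE 0.04; limma, adjusted p = 0.000108). ITGB1, the beta subunit that pairs with both, differed by -0.24 (SE 0.04; limma, adjusted p = 0.00234). In all 3 the shRNA1 and control arrays overlapped and every shRNA3 array was lower. The gene called higher was the epithelial cadherin CDH1, by 0.20, and the list median was 0.06. CDH1 lost its call with the trend removed.

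Genes of the cell cycle were called lower where they were called. In DNA replication and the G1/S transition 6 of 42 genes (14.3%) were lower and 0 higher, beside 4.15% and 2.95% of all genes. The 6 included the cyclin CCNE2 (-0.28), the repressor E2F8 (-0.22) and the clamp loader subunit RFC5 (-0.21). In G2 and mitosis 6 of 40 (15%) were lower and 0 higher, led by NEK7 and followed by ANLN, the cytokinesis scaffold anillin, at -0.28, and by NDC80 (-0.23) and SPC25 (-0.22) of the outer kinetochore. The list medians were both -0.09, and with the trend removed 4 genes of each list were called lower and the medians were -0.04 and -0.05. Leaving out single arrays gave 1 to 11 called lower in the first list and 2 to 8 in the second, so both counts rest on single arrays. These lists are bright, with median gene values of 9.82 and 9.76, where the trend with level runs downward. In the brightest bin of all genes, from 9.45 upward, 7.57% were called lower. Of 25 p53 targets 5 (20%) were called lower, beside 4.15% of all genes, and 1 to 6 with single arrays left out. The 5 were led by TP53INP1 (-0.24), in a line whose p53 is bound by large T antigen. The list median was 0.00, and with the trend removed 4 were called lower and 1 higher. The ubiquitin ligase MDM2 differed by -0.20.

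Immediate early genes and their feedback inhibitors split. EGR1, a zinc finger factor of the growth factor response, read 8.72, 8.52 and 8.51 with shRNA1, 8.13, 8.12 and 8.13 with shRNA3 and 8.36, 8.39 and 8.53 in the control (difference -0.46, SE 0.07; limma, adjusted p = 0.00354). All 3 shRNA3 arrays were below every other array, and one shRNA1 array was well above its partners. FOS, of the AP-1 family, was also lower, by -0.22. MYC was higher, at 10.75, 10.68 and 10.66 against 10.40, 10.49 and 10.55 with shRNA1 (difference 0.22, SE 0.04; limma, adjusted p = 0.01), and the phosphatase DUSP4 was higher by 0.19. In all, 5 of 27 genes (18.5%) were called higher and 3 (11.1%) lower, beside 2.95% and 4.15% of all genes. The list median was 0.08, at a median gene value of 8.32. With the trend removed 4 were higher and 3 lower, and the list median was 0.05. Leaving out single arrays gave 0 to 7 higher and 1 to 4 lower, so the split in counts rests on single arrays.

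Among the largest rises, a first set was lowered by shRNA1 against the control and less so, or not, by shRNA3. TMEM45A, a transmembrane protein, read 7.26, 7.36 and 7.32 with shRNA1, 7.84, 7.88 and 7.76 with shRNA3 and 7.66, 7.76 and 7.64 in the control (difference 0.52, SE 0.04; limma, adjusted p = 2.78e-05). RWDD4 read 7.92, 8.15 and 8.11, then 8.52, 8.57 and 8.51, against 8.61, 8.53 and 8.46 (difference 0.47, SE 0.06; limma, adjusted p = 0.000821). CEMIP2, a cell surface hyaluronidase, read 7.35, 7.37 and 7.37, then 7.84, 7.85 and 7.78, against 8.17, 8.12 and 8.17 (difference 0.46, SE 0.04; limma, adjusted p = 2.78e-05). The shRNA1 arrays were the lowest in each. For RWDD4 shRNA3 overlapped the control, for CEMIP2 both hairpins were below it, and 22 of the 48 CEMIP2 probe sets were called higher with shRNA3. KRTAP19-1, a keratin-associated protein gene on 5 probe sets, differed by 0.45 but was not called with the median of its probe sets as the gene value (limma, adjusted p = 0.532).

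A second set had its highest group mean with shRNA3. ARRDC4, an arrestin domain protein, read 8.56, 8.68 and 8.51 with shRNA1, 9.08, 9.06 and 8.93 with shRNA3 and 8.36, 8.52 and 8.34 in the control (difference 0.44, SE 0.08; limma, adjusted p = 0.00505). NEFM and NEFL encode the medium and light neurofilament chains. NEFM read 9.52, 9.60 and 9.49 with shRNA1 and 10.09, 9.91 and 9.84 with shRNA3 (difference 0.41, SE 0.08; limma, adjusted p = 0.0112), and NEFL differed by 0.34. The third neurofilament partner INA, alpha-internexin, went the other way, from 9.55, 9.56 and 9.57 with shRNA1 to 9.13, 9.18 and 9.24 with shRNA3 (difference -0.38, SE 0.07; limma, adjusted p = 0.00499). The neuronal list as a whole had 3 of 26 genes (11.5%) called higher and 3 (11.5%) lower, beside 2.95% and 4.15% of all genes. Leaving out single arrays gave 1 to 5 higher and 1 to 4 lower. The carbonic anhydrase genes CA2 (0.35) and CA8 (0.35), SLC66A3 (0.35), the phosphodiesterase PDE1A (0.40), TRIQK (0.38) and DPPA5 (0.36) complete this end of the list with FLRT2 (0.41), an adhesion protein of the fibronectin leucine-rich family. PDE1A and DPPA5 lost their calls with the trend removed.

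Of 26 interferon and double-stranded RNA response genes 3 (11.5%) were called higher and 0 lower, beside 2.95% and 4.15% of all genes: LGALS3BP (0.31), ISG15 (0.19) and the sensor IFIH1 (0.17). The list median was 0.07, at a median gene value of 8.33. Leaving out single arrays gave 1 to 6 called higher, and over all alternative settings ISG15 lost its call in 7 of 22 and IFIH1 in 9 of 23. With the trend removed LGALS3BP and ISG15 stayed called, IFIH1 did not and IFITM3, named after its value was seen, was called as well. Of 14 genes of the RNA interference machinery 2 (14.3%) were called lower, beside 4.15% of all genes, and 1 to 4 with single arrays left out. The 2 were AGO1, by -0.27, and TNRC6B, by -0.16, the second of which was not called with the trend removed.

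Several lists held no call. In limma's test 0 of 68 respiratory chain and ATP synthase genes, 0 of 54 cytosolic ribosomal proteins, 0 of 35 DNA repair genes, 0 of 23 Notch pathway genes and 0 of 14 nonsense-mediated decay factors were called, while 11, 4, 7, 5 and 6 of them had an unadjusted p below 0.05. Over all 16648 genes 1182 (7.1%) were called, and 5514 had an unadjusted limma p below 0.05. At that called share a list of 14 or 23 genes would hold few calls, so a 0 there says little. Other lists held more calls than the 4.15% lower over all genes. The proteasome had 5 of 46 genes lower (10.9%, and 0 to 6 genes with single arrays left out), among them the ATPase subunit PSMC4 (-0.24). Translation factors had 6 of 54 lower (11.1%, and 3 to 10 genes), among them EIF5A2 (-0.28) and EEF1A2 (-0.27). With the trend removed these counts were 3 and 4. Genes named ZNF did not exceed the 4.15% of all genes, with 18 of 472 (3.81%) lower, and 2 (0.424%) were higher. Leaving out single arrays gave 6 to 30 of them lower, and with the trend removed 27 were lower and 0 higher. Of 99 cullin and F-box ligase genes 8 (8.08%) were lower, including KLHL2 (-0.31) and CUL4A (-0.26), and 2 higher.

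**Figure D4:**
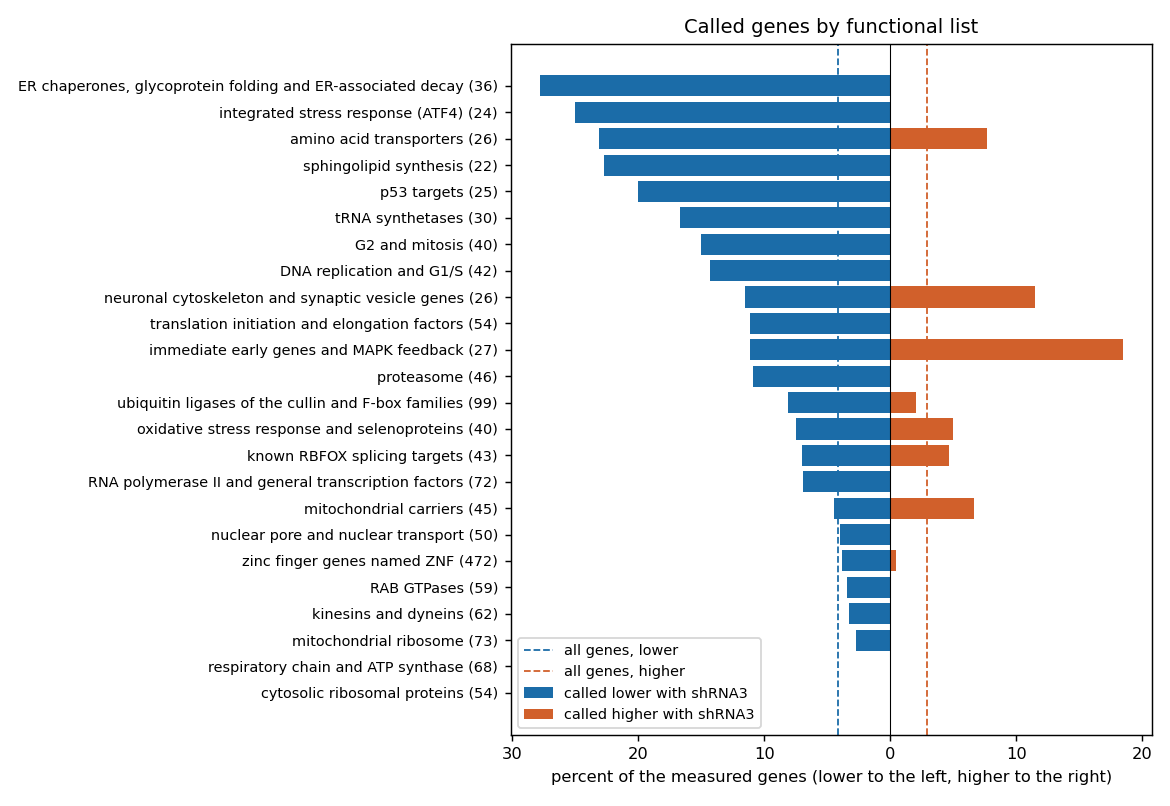
Percent of the measured genes of each list called lower (left) or higher (right) with shRNA3, for lists with at least 5 called genes or at least 50 measured genes, the number measured in brackets. Dashed lines are the percentages over all genes, 4.15% lower and 2.95% higher, and the ER chaperone list stands at 27.8% lower.

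Few probe sets passed the test for exon and junction use, which also asked for 1.5-fold, a size that only 3 genes reached. Among 417377 probe sets in 15891 genes, 13 (0.00311%) had a splicing index difference with an adjusted p below 0.05 and at least 1.5-fold, 7 higher and 6 lower with shRNA3. They were 5 junctions and 8 exons in 11 genes, with sizes from 1.52-fold to 2.60-fold. Another 2, in DUSP15 (named after its value was seen) and KIF1A, passed the p but not the fold. Before adjustment 49064 probe sets (11.8%) had a p below 0.05, and 68 reached an adjusted p below 0.1 with 1.5-fold. The count was sensitive: it was 0 with the 6 arrays alone (54495 at an unadjusted p below 0.05), 39 with a mean-variance trend in the fit, and 0 to 22 when single arrays were left out. The zeros came without control replicate 2, shRNA1 replicate 2 or shRNA3 replicate 2.

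Of the 13, 3 lay in genes on a list of 46 known RBFOX targets, of which 43 could be tested. NDEL1, a regulator of dynein, had the smallest adjusted p. The signal of its junction JUC17001145.hg.1 was 9.09, 9.03 and 9.01 with shRNA1 and 9.73, 9.79 and 9.62 with shRNA3, against 11.34, 11.23 and 11.30 in the control (splicing index difference 0.72, SE 0.06; limma, adjusted p = 0.015). Both hairpin groups were far below the control, with shRNA3 nearer to it, as for RBFOX2 itself, and the gene value differed by only -0.03. DST, dystonin, a linker of cytoskeletal filaments, had splicing indices at JUC06010710.hg.1 of 0.02, 0.13 and 0.16 with shRNA1, -0.73, -0.86 and -0.81 with shRNA3 and -1.33, -1.03 and -1.31 in the control. The difference was -0.91 (SE 0.10; limma, adjusted p = 0.0395), again with shRNA3 between shRNA1 and the control.

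HYCC1, hyccin, a part of the complex that places phosphatidylinositol 4-kinase at the plasma membrane, was far below the control with both hairpins. Its junction JUC07009127.hg.1 had signals of 10.27, 10.31 and 10.27 in the control, 6.53, 6.57 and 6.37 with shRNA1 and 5.39, 5.02 and 4.86 with shRNA3. The fit gave a splicing index difference of -1.23 (SE 0.12; limma, adjusted p = 0.0261). The means of both compared groups, 6.49 and 5.09, were under the filter level of 6.53, and the probe set was kept through the other groups, so no order of shRNA1 and shRNA3 is read from it. Over the targets as a whole, 12 of 2606 probe sets (0.46%) differed by at least 1.5-fold, beside 734 (0.176%) of all, and the median size of the difference was 0.071 beside 0.075.

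In ADD3, gamma-adducin of the membrane skeleton and a known target, the gene value passed but no splicing index did. It read 8.91, 8.91 and 8.88 with shRNA1, 9.32, 9.34 and 9.26 with shRNA3 and 9.04, 9.14 and 9.10 in the control (difference 0.41, SE 0.04; limma, adjusted p = 9.34e-05), and 33 of 58 probe sets were called higher. Its junctions JUC10005285.hg.1 and JUC10005273.hg.1 had splicing index differences of 0.74 (SE 0.16; limma, adjusted p = 0.154) and -0.67 (SE 0.15; limma, adjusted p = 0.153). A junction of CTTN, cortactin, had -0.82 (SE 0.27; limma, adjusted p = 0.284). None of these 3 splicing indices passed. The signal of JUC10005285.hg.1 was nevertheless called higher as a single probe set (difference 1.13; limma, adjusted p = 0.0131). Its mean was 7.47 with shRNA1, 8.60 with shRNA3 and 9.71 in the control.

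A further set of called exons lay in genes whose level fell. In CLGN 3 exon probe sets had splicing index differences of 0.87, 0.88 and 0.92 (limma, adjusted p = 0.0261, 0.0395 and 0.027). Their own signals differed by 0.14, 0.15 and 0.18. PSR04022157.hg.1 read 10.12, 10.14 and 10.34 with shRNA1 and 10.33, 10.45 and 10.35 with shRNA3, while 23 of the 31 probe sets of the gene were called lower. In NEK7 the exon PSR01025384.hg.1 read 9.88, 10.08 and 10.12 with shRNA1 and 10.19, 10.12 and 10.05 with shRNA3, with a splicing index difference of 0.82 (SE 0.08; limma, adjusted p = 0.0261). The groups overlapped in signal there, and 20 of 27 probe sets were called lower. SLC25A24, a mitochondrial ATP-Mg/phosphate carrier whose gene value fell by 0.42, had an exon at 10.74, 10.77 and 10.78 with shRNA1 and 10.95, 10.86 and 10.97 with shRNA3 (splicing index difference 0.61, SE 0.07; limma, adjusted p = 0.0395). One CLGN exon, PSR04022159.hg.1, read only 6.60 and 6.74, close to the filter level of 6.53, and so had little room to fall. In the other 4 of these 5 calls the exon's mean signal differed by 0.09 to 0.18 while the gene value fell, and the signals of all 5 failed the test as single probe sets.

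The other 5 called genes had a probe set whose own signal moved. A junction of INHBE read 8.48, 8.39 and 8.40 with shRNA1, 7.19, 6.82 and 6.55 with shRNA3 and 6.61, 6.78 and 6.68 in the control (splicing index difference -1.38, SE 0.16; limma, adjusted p = 0.0456). The shRNA1 arrays stood alone, in a gene with only 4 other kept probe sets. This junction also enters the INHBE gene value given above, and its means with shRNA3 (6.85) and in the control (6.69) were close to the filter level of 6.53. A junction of RC3H1, the RNA-binding ubiquitin ligase Roquin-1, read 7.81, 8.16 and 8.20 with shRNA1 and 6.69, 6.99 and 6.89 with shRNA3 (splicing index difference -1.10, SE 0.13; limma, adjusted p = 0.0497), against 8.12, 8.11 and 8.08 in the control. Exons of CARMIL2, a regulator of actin capping, and of FOSB, of the AP-1 family, had differences of -0.80 and -0.70 (limma, adjusted p = 0.0395 for both), with shRNA1 above and shRNA3 below the control. An exon of IQCB1, a protein of the primary cilium, read 8.93, 8.94 and 8.85 with shRNA1 and 9.30, 9.39 and 9.30 with shRNA3, against 9.16, 9.18 and 9.22 in the control (splicing index difference 0.61, SE 0.07; limma, adjusted p = 0.0454).

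**Figure D5:**
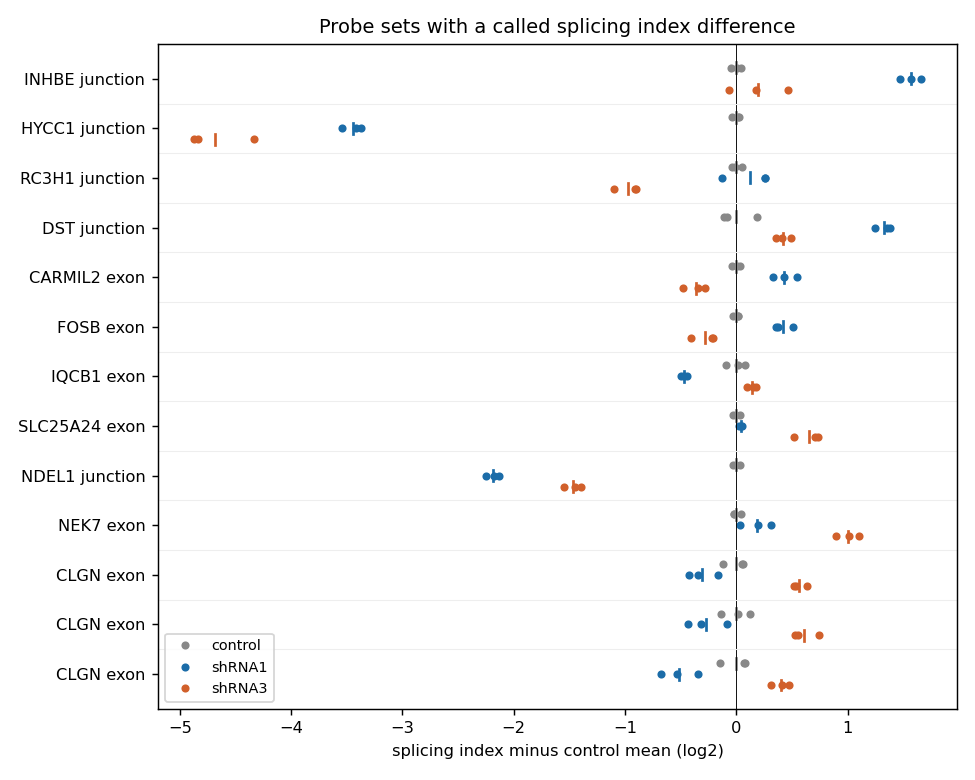
Splicing index minus the control mean (log2) of the 13 called probe sets, 1 point per array and a bar at each group mean, ordered by the difference between shRNA3 and shRNA1. NDEL1 and HYCC1 are far below the control with both hairpins, while the exons of SLC25A24 and NEK7 differ from the control mainly with shRNA3.

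Single probe sets were tested without regard to their gene as well. Of 521119, 1939 (0.372%) were called, 388 higher and 1551 lower, in 763 genes with 1 symbol, and 253 of the 1939 had no single gene name. They were 1139 exons and 800 junctions. The number of arrays limits the precision of all these values, and scan times were not used here, so a batch was not checked.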

How the data were processed

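Affymetrix Expression Console and RMA made the values, per the submitters' processing notes, and their versions and settings and the genome build were not stated in what was used here. The deposited values are log2, judged by their range, and none was rescaled. Of 914585 rows, 573909 were exon and 339146 junction probe sets, and 1530 controls were left out. The platform annotation gave 1 gene symbol to 672085 probe sets, several to 39483 and none to 201487. Of 22085 symbols 2474 were updated through RefSeq names. Identical copies within a gene (26130) were counted once. Probe sets above the 40th percentile of the mean over 12 arrays (log2 6.53) were kept. Gene values needed 3 kept probe sets, and splicing indices 4.

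Two-sided tests came from limma 3.58.1 in R 4.3.3 (lmFit, then eBayes), fitted to all 4 groups without a block (8 residual degrees of freedom), with Benjamini-Hochberg adjustment over all features. The arrays compared, the gene lists (49) and the naming rule were chosen with earlier results of these data known. Named were the RBFOX genes, the 15 largest rises and falls, up to 4 called genes per list, every called splicing index and 6 probe sets of RBFOX targets. Others are marked in the text. Same-numbered shRNA1 and shRNA3 arrays did not deviate together (r of -0.13, 0.00 and -0.07 over genes), so they were not paired. Both tests were run first on simulated data with known changes.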

Additional observations from a re-analysis of the deposited data

How the results depend on the processing

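Genes called numbered 3347 with the 6 arrays alone and 292 with the median of a gene's probe sets as its value, and 291 to 2508 when single arrays were left out. A fold threshold of 1.2 left 155 and one of 1.5 left 3. The other settings gave between 808 and 1401, namely the replicate block (881), no filter on dim probe sets (837), a filter at the 60th percentile (1401), a variance trend (1377), centred arrays (1247), exons only (1207), copies kept (1177), and, chosen after seeing the data, quantile normalisation (1130) and removal of the level trend (934), together with the arrays left out one at a time that lie in that range. Splicing indices called were 0 with the 6 arrays, 1 with the replicate block, 0 without the filter (limma, with 60124 at an unadjusted p below 0.05), 21 with the 60th percentile, 39 with the variance trend, 23 against the median of the other probe sets, 3 at 2-fold and 0 to 22 with single arrays left out. Each of the 13 lost its call in 7 to 14 settings, and all kept their sign. Single probe sets called were 242 with the 6 arrays, 755 with the block, 95 without the filter, 3863 with the 60th percentile, 4653 with the variance trend and 177 to 2480 with arrays left out. RBFOX2 kept its sign and its call in each setting. Of 147 called named genes 47 kept their call in each setting, 22 of them among the 30 largest. RBFOX3 changed sign with the 60th percentile filter (0.0098) and MTHFD1L with the median gene value (0.051). The cause was not tested in any of these, apart from the smaller number of arrays or probe sets in each fit. Same-numbered arrays share only a number, so the block says nothing of pairing.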

Other observations

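Genes for long non-coding RNAs leaned toward higher values with shRNA3. Of 554 tested, 21 (3.79%) were called higher and 2 (0.361%) lower, with a median difference of 0.06, beside 2.91% and 4.32% of 15553 protein-coding genes with a median of 0.01. Their median gene value was 7.93, beside 8.57 for coding genes. In the second dimmest bin of all genes, with levels from 7.82 to 8.27, 4% were called higher and 1.77% lower, with a median difference of 0.07. The share called higher and the median were thus near those of all genes in that bin. The part of the trend with level in this was not tested.

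By chromosome, the share of genes called higher with shRNA3 ran from 1.90% on chromosome 15 to 5.13% on chromosome 8 (30 of 585), and the share called lower from 1.91% on chromosome 22 to 6.10% on chromosome 1 (101 of 1655). Of the 15 largest rises, 5 (NEFM, NEFL, CA2, CA8 and TRIQK) lie on chromosome 8, beside 30 of the 491 genes called higher and 585 of the 16648 tested. These counts were looked at after the values were seen and were given no test.

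Probe sets without a single gene name held 253 of the 1939 called single probe sets. They are not named here.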
